A study of Arabidopsis thaliana with 119 samples.

Results

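In rosettes of Arabidopsis thaliana, 9 of 32833 genes in the count table differed from control mainly when low water and low nitrate supply came together. They were selected on their measured counts, so the pattern itself is no finding. Counts were scaled by the total of each library to CPM, the usual count unit relative to depth, taken as log2(CPM + 0.5), averaged over the libraries of each accession and treatment, set against the control treatment of the same accession, and averaged over 5 accessions. A gene was a member if its mean level was at least 2 CPM, its mean change in combined stress was at least 0.5 in size on this log2 scale, and its mean change was below 0.25 in size in each of the 2 single stresses. Of the 9 members, 7 were higher and 2 were lower in combined stress. The single-stress and combined-stress changes of the members are therefore given as a description, with no test. Tests are given only for what the rule did not use, which was how the change differed between accessions, the levels of the accessions in control, the code in the library titles, and choice in the libraries of 1 code with a test in the other. The limit of 2 CPM on the mean level is an exception, and it bears on the control levels of weakly counted members.

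The natural inbred lines were Tsu-0, Sha, Cvi-0, Bur-0 and Col-0. A Phenoscope, a watering robot for pots, kept all plants for 23 days under short days, and rosettes were taken 31 days after sowing. The control treatment, W+N+, was 160.45 ± 7.96 ml of solution at 5 mM nitrate. Drought, W-N+, was 50.85 ± 4.67 ml at 5 mM. Nitrogen deficiency, W+N-, was 161.93 ± 11.07 ml at 0.5 mM, and combined stress, W-N-, was 50.70 ± 4.10 ml at 1.5 mM. Volume times concentration came to 802 µmol of nitrate for W+N+, 254 µmol for W-N+, 81.0 µmol for W+N- and 76.0 µmol for W-N-, so plants under combined stress and nitrogen deficiency were given a similar amount of nitrate and plants under combined stress and drought a similar volume. Each of the 20 groups held 6 libraries, except Bur-0 W+N+ with 5.

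Plants take up nitrate, phosphate and other ions from the soil solution and adjust transporters, growth regulators and protective metabolites when the supply of water or of an ion falls. PHT1 proteins carry phosphate into cells across the plasma membrane, and the family is known for its responses to phosphate supply. Glucosinolates are sulfur-rich defence compounds of the cabbage family, and glucosidases stored apart from them release toxic products when tissue is damaged. Growth-regulating factors (GRFs) are transcription factors of dividing leaf cells whose transcripts are, for most of the family, cut by the microRNA miR396.

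Total counts per library ran from 9698708 to 110420763, with a median of 17998283. Rosette markers were high in every library. The root markers CASP1, CASP2 and COBL9 had medians of 0.116, 0 and 0 CPM and summed to at most 1.15 CPM. PYK10, a member that is also used as a root marker, was left out of that sum and ran from 5.64 to 56.8 CPM. The 6 flower markers summed to a median of 1.59 CPM and at most 10.2 CPM. Total-count scaling placed the median of all tested genes 0.11 higher in combined stress, 0.15 higher in nitrogen deficiency and 0.03 higher in drought on the log2 scale than scaling by trimmed means (TMM), so the combined-stress changes in a fit of edgeR with TMM scaling are given beside those of the rule. A gene is said to be called, to rise or to fall where edgeR's adjusted p was below 0.05. In bulk rosettes, fewer cells that express a gene and less RNA per cell cannot be told apart. An earlier look at these data had placed 4 libraries far from their groups, namely replicate c of Cvi-0 W+N+, c of Bur-0 W-N-, f of Col-0 W+N+ and d of Tsu-0 W+N-, and values without them are given where they differ. Nothing in the labels says that each library is a separate plant, and the p-values cover the spread between libraries.

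Few expressed genes had this pattern. Of 16148 genes whose mean reached 2 CPM, 2083 (12.9%) differed by at least 0.5 in combined stress, 1592 of them higher and 491 lower. In 1990 of the 2083 genes the change in nitrogen deficiency was at least 0.25 in the same direction, and in 894 the change in drought was. Both single changes stayed below 0.25 in 6204 genes. Among these, 5753 also stayed below 0.25 in combined stress, 442 lay between 0.25 and 0.5, and 9 (0.0557% of 16148) were members. By the same limits turned round, 14 genes differed in drought and in neither other treatment, and 321 in nitrogen deficiency and in neither other.

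**Figure D1:**
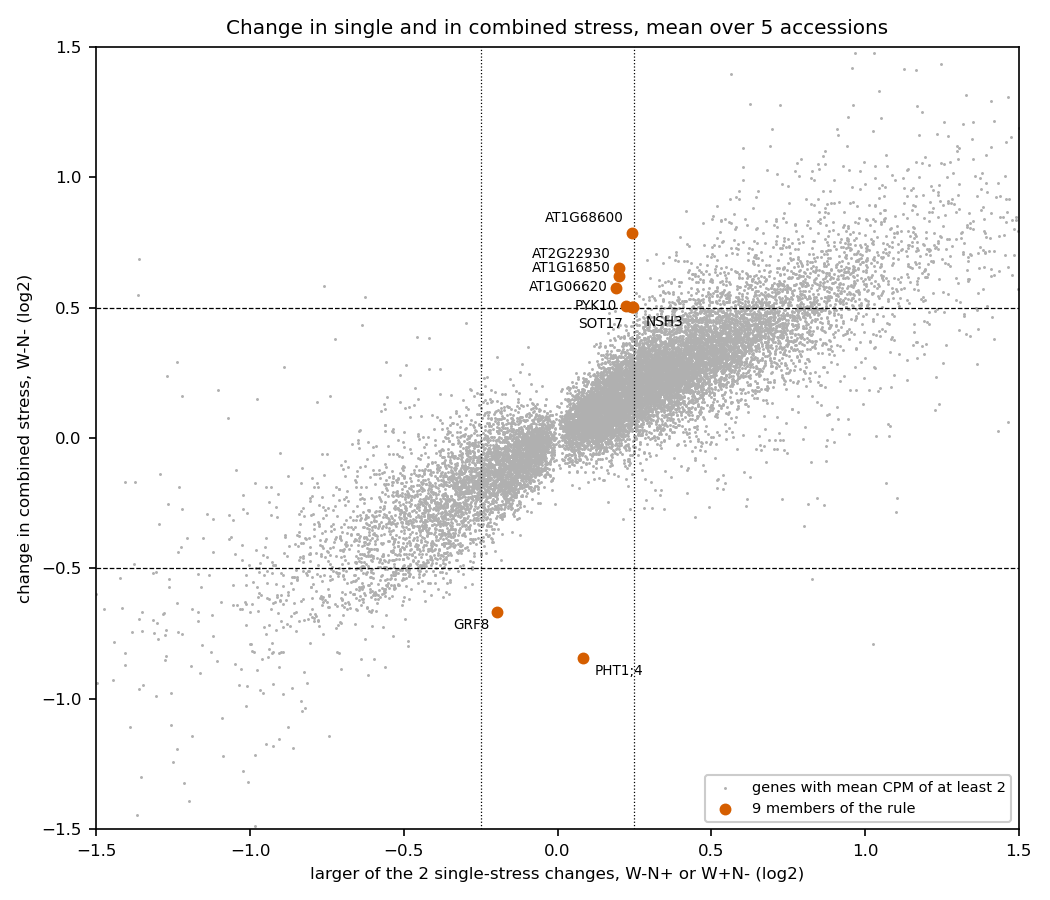
Change in combined stress (y axis, log2) against the larger in size of the 2 single-stress changes (x axis, log2), each a mean over 5 accessions, for genes whose mean reached 2 CPM; dotted lines mark 0.25, dashed lines mark 0.5, and genes beyond 1.5 are not shown. The 7 members above the dashed line lie next to the cloud of other genes, and GRF8 and PHT1;4 lie below it, PHT1;4 at -0.84 with its larger single change at 0.08.

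Most members sat close to a limit of the rule. SOT17 (0.50), NSH3 (0.50), PYK10 (0.51) and AT1G06620 (0.57) were the members just inside the combined limit. Just outside it were JAZ6, a repressor of jasmonate signalling (0.49), 4CL8 (0.49), the nitrile specifier NSP1 (0.48) and the methyltransferase-like gene AT1G16445 (-0.47). NSH3, AT1G68600, SOT17 and PYK10 were the members nearest the single-stress limit, with larger single changes of 0.25, 0.24, 0.24 and 0.22. Just beyond that limit were AT4G11350 (0.26 in drought), the jasmonate repressor gene TIFY7 (0.26 in drought), AT3G12965 (-0.28 in nitrogen deficiency) and AT1G15250 (-0.28 in drought). When the rule was repeated under 19 other settings, which left out an accession, a code or a replicate letter or changed a limit or the scaling, PHT1;4 met it in 17, AT1G68600 in 14, AT1G16850 in 12 and AT2G22930 in 11. AT1G06620 met it in 8, PYK10 in 6, SOT17 and GRF8 in 5 each and NSH3 in 4.

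PHT1;4, a high-affinity phosphate transporter, was the member whose level stood farthest from both single stresses. Over all accessions its level ran from 2.04 to 10.4 CPM in control (median 4.86), from 1.34 to 14.7 CPM in drought (median 4.93), from 2.17 to 7.77 CPM in nitrogen deficiency (median 4.96) and from 1.21 to 5.78 CPM in combined stress (median 2.38). The medians of the first 3 treatments were nearly equal and that of combined stress lay below them. By the rule its changes were 0.08 in drought, -0.05 in nitrogen deficiency and -0.84 in combined stress, which was 1.80-fold lower and 0.88 below the sum of the single changes. In the TMM fit the changes were 0.05 ± 0.09 (SE) in drought, -0.25 ± 0.09 in nitrogen deficiency and -1.12 ± 0.09 in combined stress, so its level in nitrogen deficiency was nearer to control by the rule than in this fit.

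The level of PHT1;4 was lower in combined stress in all 5 accessions, by the rule -1.10 in Col-0, -0.63 in Bur-0, -0.79 in Cvi-0, -0.86 in Sha and -0.84 in Tsu-0. Col-0 control libraries ran from 3.51 to 4.99 CPM and Col-0 combined-stress libraries from 1.33 to 2.80 CPM, and the groups did not overlap. Bur-0 had 2.043 to 4.21 CPM in control and 1.21 to 2.041 CPM in combined stress, without overlap but with almost no gap. In Cvi-0, Sha and Tsu-0 the groups overlapped. Overlap of groups was read for members only, and its share over all genes was not counted. The near-zero mean in drought covered accessions that went opposite ways: Col-0 was lower (-1.01, with 1.34 to 2.33 CPM in drought and no overlap with control), whereas Tsu-0 (0.75), Cvi-0 (0.43) and Bur-0 (0.40) were higher, each overlapping its control. In Col-0, drought alone therefore gave a level close to that of combined stress (medians 1.93 and 1.59 CPM).

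AT1G68600 is annotated as a member of the aluminium-activated malate transporter family, anion channels of the plasma and vacuolar membranes. It had the most reads of the members, with a median of 123 CPM in control (43.5 to 240.0), 135 in drought (58.6 to 286), 139.6 in nitrogen deficiency (62.9 to 209) and 223 in combined stress (97.5 to 289). The median of combined stress was the highest of the 4 treatments. Per kilobase of transcript its control level (median 60.8 CPM per kb) was below that of SOT17 (71.1). Its changes by the rule were 0.20, 0.24 and 0.79, a 1.73-fold higher level in combined stress and 0.34 above the sum of the single changes. The TMM fit gave 0.16 ± 0.06 in drought, 0.04 ± 0.06 in nitrogen deficiency and 0.64 ± 0.06 in combined stress.

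Combined-stress libraries of AT1G68600 lay above every control library of the same accession in Col-0 (249.8 to 289 against 95.9 to 189 CPM), Bur-0 (97.5 to 159 against 47.1 to 65.4), Cvi-0 (203 to 254 against 43.5 to 194) and Sha (152 to 191 against 88.8 to 115). In Tsu-0 the ranges overlapped, with 226 to 288 CPM in combined stress and 186 to 240.0 in control. Tsu-0 also went against the others in nitrogen deficiency, where its level was lower (107 to 186 CPM, -0.49) and the other 4 accessions were higher by 0.30 to 0.54. Its small mean in nitrogen deficiency was therefore an average over accessions of opposite direction. Nitrogen deficiency alone did not overlap control in Sha (115.9 to 136 against 88.8 to 114.7 CPM). In Tsu-0 it did not either, but with almost no gap (at most 185.97 against at least 186.24 CPM).

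GRF8, a growth-regulating factor, was lower in the mean but differed widely between libraries of the same group. In control its level ran from 1.87 to 182 CPM (median 18.1), in drought from 2.49 to 205 (median 12.04), in nitrogen deficiency from 1.68 to 141 (median 11.4) and in combined stress from 1.06 to 134 (median 5.44). The 4 treatments overlapped across nearly their whole ranges. The SD between libraries of a group was 1.63 on the log2 scale, at the 99.96th percentile of genes whose mean reached 2 CPM. Its combined-stress change by the rule was -0.67 and in the TMM fit -1.04 ± 0.43, where nitrogen deficiency was at -0.48 ± 0.42 (rule -0.20). In combined stress it was lower in Col-0 (-1.95), Tsu-0 (-1.44), Bur-0 (-1.21) and Cvi-0 (-0.55), and higher in Sha (1.82), with overlap between control and combined stress in all 5 accessions. Its small mean change in drought (0.07 by the rule) covered accessions of opposite direction. Col-0 (-1.01), Bur-0 (-0.50) and Cvi-0 (-0.31) were lower, and Sha (1.13) and Tsu-0 (1.05) higher, each overlapping its control. In Col-0 control alone the libraries ran from 1.92 to 84.0 CPM. Without 4 libraries far from their groups the fitted change of GRF8 was -0.62, and without those of replicate letter c it was -0.68.

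SOT17 encodes a sulfotransferase of the last core step of glucosinolate synthesis. Its median was 107 CPM in control (48.4 to 217), 134 in drought (60.4 to 189.9), 129 in nitrogen deficiency (41.1 to 170.1) and 159.8 in combined stress (64.0 to 216). Combined stress had the highest median, and each single stress lay between it and control. The rule gave 0.24 in drought, 0.21 in nitrogen deficiency and 0.50 in combined stress, 0.05 above the sum of the single changes. In the TMM fit these were 0.21 ± 0.05, 0.02 ± 0.05 and 0.37 ± 0.05, the last below the limit of 0.5. Control and combined stress did not overlap in Col-0 (70.6 to 104 against 122 to 144 CPM), Bur-0 (95.9 to 130.1 against 158 to 208) and Sha (107 to 129 against 154 to 201). Drought alone in Bur-0 (132.7 to 187 CPM) and nitrogen deficiency alone in Sha (135 to 170.1 CPM) did not overlap control either. Cvi-0, with the highest control level (137 to 217 CPM), moved least (0.20).

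NSH3 encodes a nucleoside hydrolase of the cell wall space that splits purine nucleosides. Its median was 9.30 CPM in control (3.01 to 16.2), 10.04 in drought (4.13 to 17.9), 10.5 in nitrogen deficiency (3.25 to 20.8) and 13.2 in combined stress (4.27 to 18.1). The ranges of the treatments overlapped over most of their width. By the rule it was at 0.25 in each single stress and 0.50 in combined stress, 0.01 above their sum. In the TMM fit the changes were 0.21 ± 0.08 in drought, 0.06 ± 0.08 in nitrogen deficiency and 0.38 ± 0.08 in combined stress, again below 0.5. The groups of control and combined stress overlapped in all 5 accessions.

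PYK10 is the beta-glucosidase of the ER body, a store compartment of seedlings and roots. Its median was 16.7 CPM in control (5.64 to 43.8), 20.6 in drought (9.68 to 47.0), 18.7 in nitrogen deficiency (10.7 to 38.1) and 27.01 in combined stress (12.9 to 56.8). By the rule all accessions were higher in combined stress, from 0.20 in Cvi-0 to 0.83 in Col-0, whereas in the TMM fit Cvi-0 was at -0.11 ± 0.26 and Bur-0 at 0.06 ± 0.28. In combined stress only Col-0 showed no overlap with control (19.6 to 32.3 against 8.00 to 16.7 CPM). Col-0 libraries under drought alone also lay above control, at 16.76 to 27.04 CPM against at most 16.72 CPM. PYK10 is also widely used as a root marker, while the other root markers in these libraries were near 0. The TMM fit reduced its combined-stress change from 0.51 by the rule to 0.28 ± 0.12, with -0.20 ± 0.12 in nitrogen deficiency (rule 0.09). Its gene overlaps AT3G09250 on the opposite strand in the TAIR10.1 annotation, and the strand setting of the counting is not given in the sources used here, so reads of the pair may not be separated.

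AT1G06620 is annotated as a 2-oxoglutarate and iron-dependent oxygenase, a class of enzymes that modify hormones and defence compounds. Its median was 4.81 CPM in control (1.17 to 14.5), 5.94 in drought (1.91 to 11.9), 5.39 in nitrogen deficiency (1.70 to 14.9) and 7.76 in combined stress (2.56 to 18.7). Control and combined stress overlapped in every accession. The change by the rule was 0.16, 0.19 and 0.57, and accessions ran from -0.03 in Col-0 to 1.24 in Bur-0. The TMM fit gave 0.43 ± 0.12 in combined stress, below the limit of 0.5. AT2G22930 is annotated as a UDP-glycosyltransferase, enzymes that attach sugars to small molecules. It was a weakly counted gene, with a median of 2.95 CPM in control (0.107 to 12.3), 3.42 in drought (0.966 to 6.81), 3.94 in nitrogen deficiency (0.558 to 7.43) and 5.65 in combined stress (1.52 to 9.68). Combined stress had the highest median, but the spread between accessions was wider than the change, which was 0.65 by the rule and 0.60 ± 0.09 in the TMM fit. Control and combined stress did not overlap in Bur-0 (2.31 to 3.43 against 4.67 to 6.24 CPM), Sha (3.33 to 4.81 against 5.57 to 8.41) and Tsu-0 (0.564 to 1.47 against 1.52 to 2.18).

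AT1G16850 encodes a protein of no annotated function. Its median was 2.92 CPM in control (0.718 to 8.84), 2.95 in drought (0.824 to 7.68), 2.96 in nitrogen deficiency (0.789 to 8.01) and 4.36 in combined stress (1.35 to 11.9). As with PHT1;4, the medians of the first 3 treatments were nearly equal. The rule gave 0.20, 0.14 and 0.62 and the TMM fit 0.56 ± 0.13 in combined stress. The small single-stress means covered accessions that differed. In drought the gene was at 0.61 in Tsu-0, 0.56 in Bur-0, 0.09 in Col-0, -0.06 in Sha and -0.21 in Cvi-0. In nitrogen deficiency it was at 0.47 in Tsu-0, 0.39 in Bur-0, 0.09 in Col-0, 0.07 in Sha and -0.32 in Cvi-0. Each of these groups overlapped its control. In combined stress it was higher in all 5 accessions, most in Bur-0 (1.03) and Tsu-0 (0.92) and least in Cvi-0 (0.14), and only in Tsu-0 was there no overlap with control (6.16 to 11.9 against 2.82 to 5.78 CPM). The Bur-0 value includes replicate c, 1 of the 4 far libraries, at 6.62 CPM (others 2.18 to 3.23). Without those 4 libraries the fitted change of AT1G16850 was 0.47, below the limit of 0.5. Over all settings it ran from 0.46 (without replicate letter c) to 0.67 (without a).

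**Figure D2:**
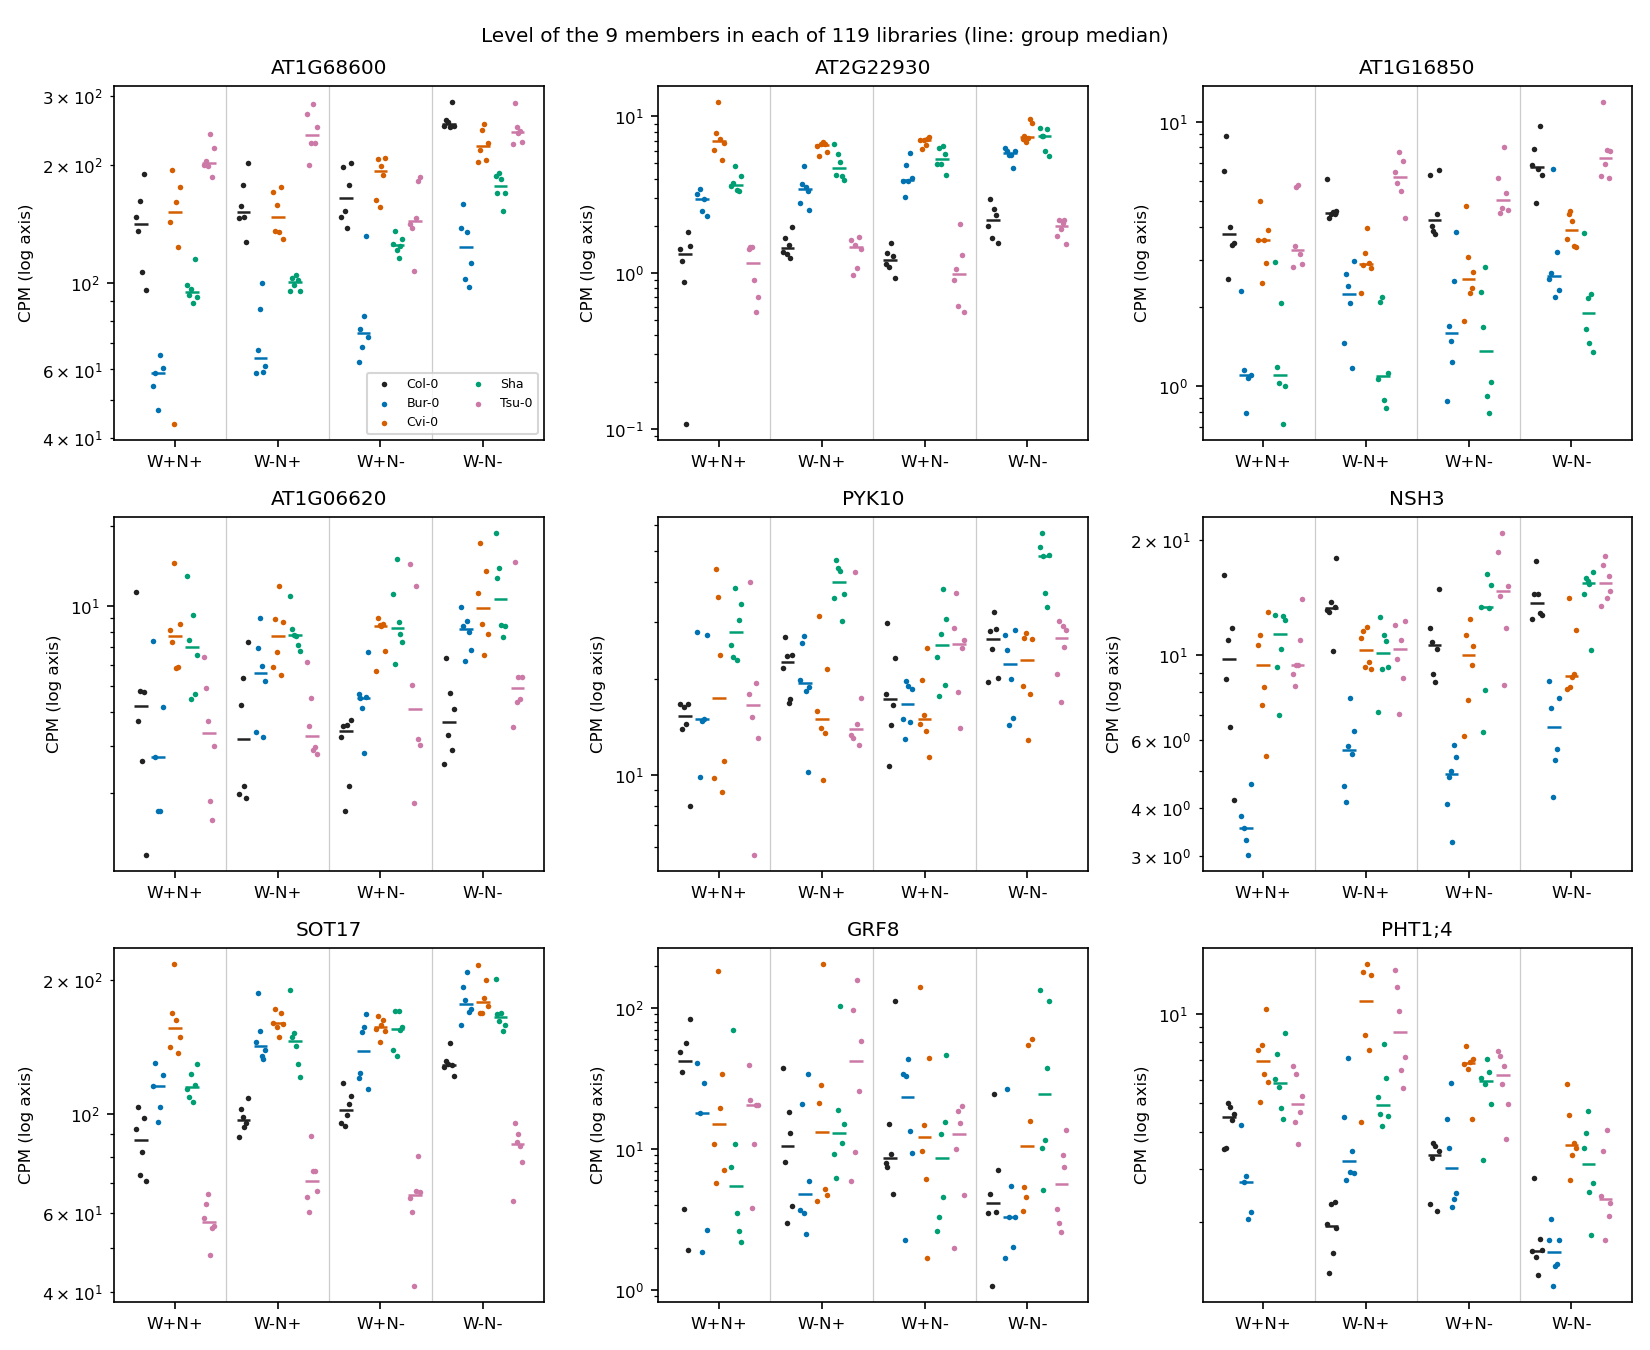
Level of each member in each library (y axis, CPM, log axis) by treatment (x axis) and accession (colour), with a line at each group's median. PHT1;4 is lowest in combined stress with a median of 2.38 CPM, AT1G68600 is highest there with a median of 223 CPM, and GRF8 spreads from 1.06 to 205 CPM with overlap throughout.

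The limits of the rule keep the combined change of a higher member above the sum of its single changes, so the differences from that sum are a description. The combined change of AT1G68600 was 0.34 higher, AT1G16850 0.28 higher, AT2G22930 0.25 higher, AT1G06620 0.22 higher and PYK10 0.20 higher, while SOT17 and NSH3 differed by 0.05 and 0.01. PHT1;4 and GRF8 were 0.88 and 0.54 below it. In the TMM fit the differences from the sum ran from 0.11 ± 0.11 (NSH3) to 0.44 ± 0.09 (AT1G68600) for the 7 higher members, with -0.92 ± 0.13 for PHT1;4 and -0.59 ± 0.60 for GRF8.

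**Figure D3:**
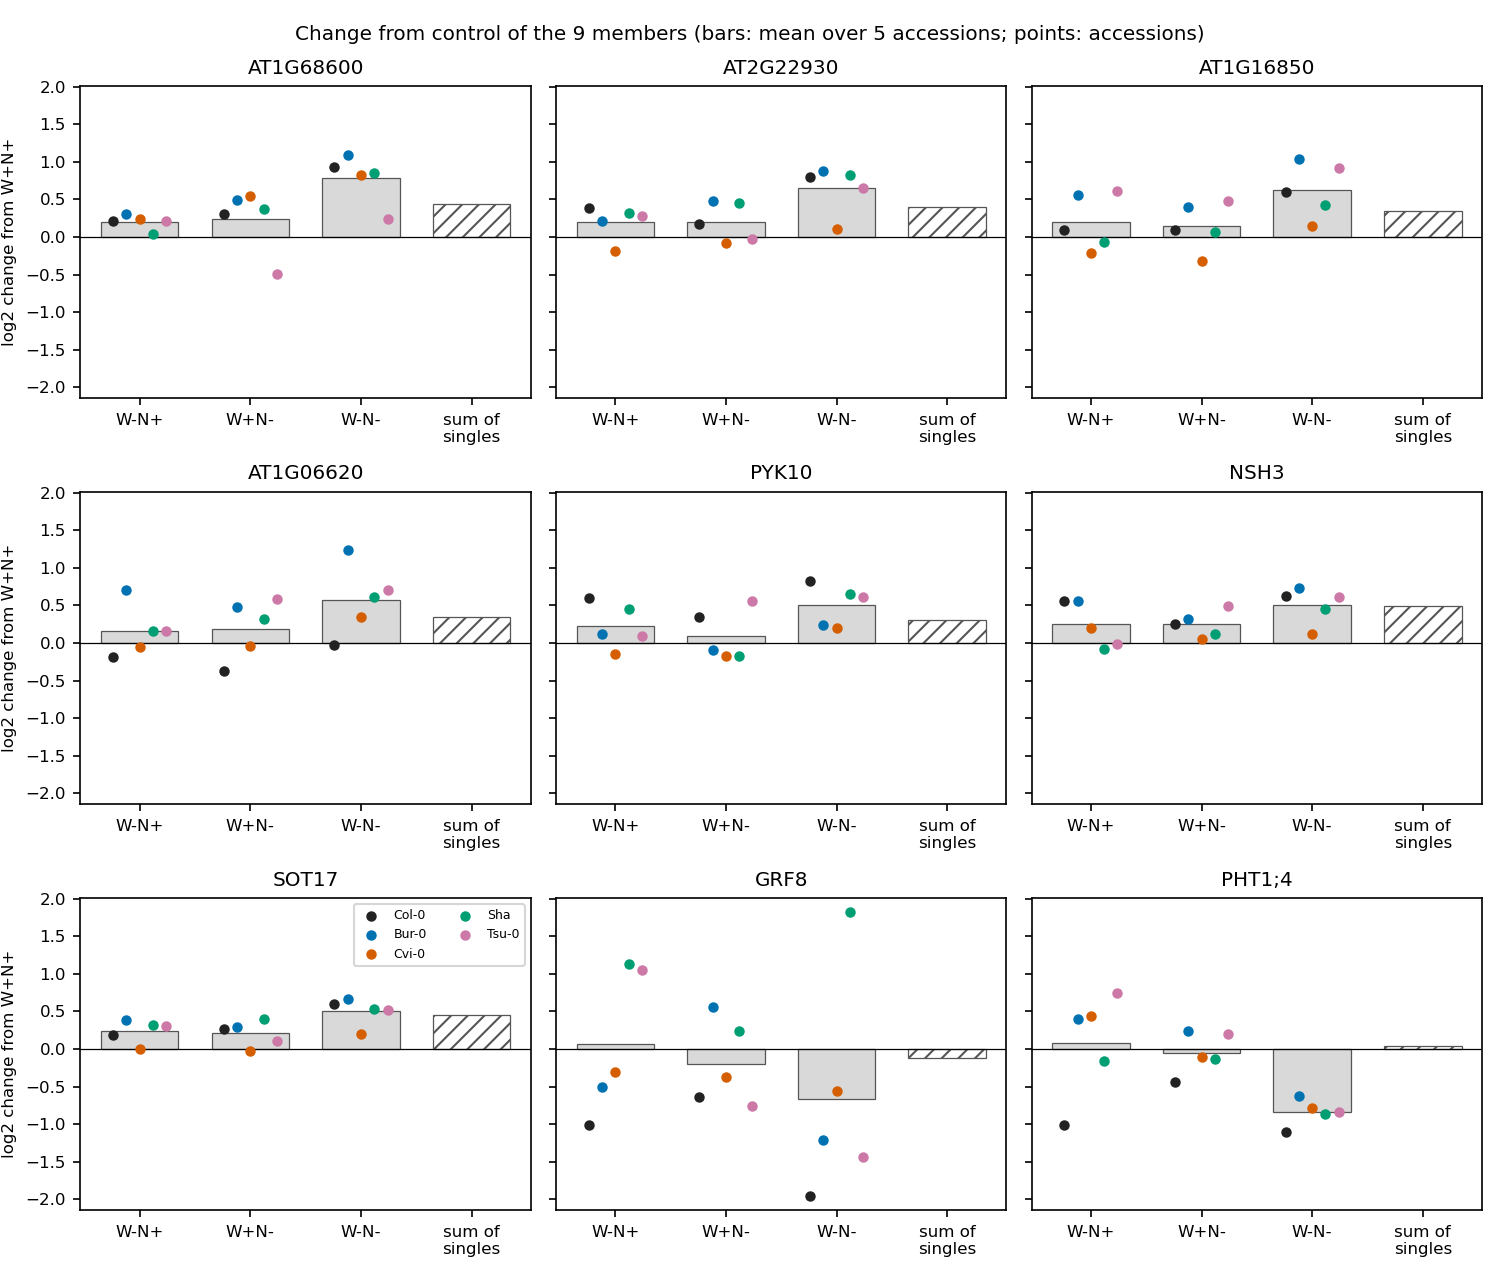
Change from control on the log2(CPM + 0.5) scale (y axis) in drought, nitrogen deficiency and combined stress, with the sum of the single changes (hatched bar); grey bars are means over 5 accessions and points are accessions. PHT1;4 is below 0 in combined stress in all accessions (-1.10 to -0.63) and on both sides of 0 in drought, and Sha lies at 1.82 for GRF8, opposite to the other accessions.

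Whether the combined-stress change depended on accession was tested with an F test on 4 degrees of freedom in edgeR's quasi-likelihood fit, which the mean over accessions in the rule does not use. It was called for 3 of the 9 members, against 13.5% of the 20025 genes tested. AT1G68600 had an adjusted p of 0.00589, with changes by the rule of 0.82 to 1.09 in 4 accessions and 0.24 in Tsu-0. In the tested fit, which uses TMM, Tsu-0 was at 0.08 ± 0.14 and the others at 0.63 to 1.03. AT1G06620 had an adjusted p of 0.0442 in the same edgeR test, with -0.03 in Col-0 and 1.24 in Bur-0 at the ends by the rule. In the fit these were at -0.38 ± 0.28 and 1.09 ± 0.29. AT2G22930 had an edgeR adjusted p of 0.0463, with 0.66 to 0.88 in 4 accessions and 0.10 in Cvi-0 by the rule. In the fit Cvi-0 was at -0.03 ± 0.18 and the others at 0.67 to 0.87. The Cvi-0 control holds replicate c at 12.3 CPM (others 5.25 to 7.83). Without the 4 libraries far from their groups, which include it, AT2G22930 was not called (adjusted p 0.164). GRF8 (0.126), SOT17 (0.157), AT1G16850 (0.19), NSH3 (0.285), PYK10 (0.459) and PHT1;4 (0.536) had edgeR adjusted p-values above 0.05, which does not show that their accessions changed alike. AT1G68600 was called under 11 of 13 other settings, but not without the libraries of replicate letter a (0.0629) or d (0.107). AT1G06620 was called under 7 of the 13, with adjusted p-values from 0.0247 to 0.209, and AT2G22930 under 3, from 0.00986 to 0.259.

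In control, levels differed between accessions for 8 of the 9 members in edgeR's quasi-likelihood test, against 75.6% of all genes tested. AT2G22930 had the smallest adjusted p (5.58e-26), with medians of 6.95 CPM in Cvi-0, 3.66 in Sha, 2.95 in Bur-0, 1.31 in Col-0 and 1.15 in Tsu-0. Its order was led by Cvi-0, while Col-0 and Tsu-0 overlapped. The limit of 2 CPM is on the mean over all libraries. AT2G22930 reached it through Cvi-0, Sha and Bur-0, as its control means were 1.15 CPM in Col-0 and 1.08 in Tsu-0. For so weak a gene this test is not independent of that limit. SOT17 (adjusted p 1.48e-21) was highest in Cvi-0 (median 156 CPM) and lowest in Tsu-0 (57.3), and the Tsu-0 control libraries lay below those of the other accessions. AT1G68600 (9.66e-20) was highest in Tsu-0 (median 202) and lowest in Bur-0 (58.7). NSH3 (5.68e-12) stood out by Bur-0, at a median of 3.54 CPM with no library above 4.62, against medians of 9.42 to 11.4 in the others. AT1G16850 (5.43e-10 in the same edgeR test) had medians near 1.11 CPM in Bur-0 and Sha and 3.27 to 3.75 in the others. Its control means were 1.29 CPM in Bur-0 and 1.49 in Sha, so it reached the limit of 2 CPM mainly through Col-0, Cvi-0 and Tsu-0. For AT1G16850 too this test is not independent of that limit. PHT1;4 (2.36e-07) ran from a median of 2.71 CPM in Bur-0 to 6.92 in Cvi-0, AT1G06620 (8.42e-06) from 2.73 in Bur-0 to 7.73 in Cvi-0, and PYK10 (0.00693) from 14.98 in Bur-0 to 27.96 in Sha. The call for PYK10 was lost without replicate letter c (adjusted p 0.0556). GRF8 had an adjusted p of 0.325. Counting used 1 set of gene models for every accession, and a role of sequence differences in these levels was not tested.

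The library titles carry 1 of 2 codes, P3ID33 and P3ID34, whose meaning the labels do not give, with libraries of every group under each. The code itself was called for 3 members, against 41.8% of all genes. In edgeR's quasi-likelihood test AT1G06620 was higher in P3ID34 by 0.65 ± 0.09 (adjusted p 2.9e-10), PHT1;4 was higher by 0.36 ± 0.06 (9.48e-07), and AT1G68600 was lower by 0.14 ± 0.05 (0.0104). Applied to the libraries of P3ID33 alone, the rule gave 2 genes, AT1G16850 and PHT1;4. Membership was set on both codes, so that both are members adds nothing to the test. Both were called in the same direction in the libraries of P3ID34, which that choice had not used, where 22.7% of 20259 genes were called higher and 21.1% lower. There PHT1;4 fell, with a change of -0.995 ± 0.12 (edgeR adjusted p 4.69e-09), and AT1G16850 rose, with 0.52 ± 0.17 (adjusted p 0.0117).

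The rule applied to P3ID34 alone gave 17 genes. In the libraries of P3ID33, 10 of the 17 were called in the same direction, against 24.1% of 19889 genes called higher and 21.6% lower, and 15 had the same sign. These calls are of the combined-stress change alone and set no limit on the single changes. With a change of at least 0.5 also asked, 5 were called, against 7.26% of all genes higher and 6.74% lower, and in P3ID34 both genes chosen in P3ID33 were (7.45% and 6.86%). Which of the 17 are members depends on P3ID33 too, so members and other genes are not set against each other. In edgeR's quasi-likelihood test PHT1;4 fell by 1.23 ± 0.11 (adjusted p 1.32e-12), AT2G22930 rose by 0.71 ± 0.14 (2.53e-05), AT1G16850 by 0.65 ± 0.17 (0.00149) and NSH3 by 0.39 ± 0.10 (0.00165). Also called were NSP1 (0.26 ± 0.08, adjusted p 0.00439), AT4G11350 (0.55 ± 0.10, adjusted p 7.09e-06), 4CL8 (0.28 ± 0.10, 0.0204) and LecRK-I.9 (0.25 ± 0.10, 0.0492). The same edgeR test called AT3G16670 (-2.71 ± 0.23, adjusted p 1.96e-13) and AT2G35790 (-0.47 ± 0.10, 6.79e-05), which were lower in the single stresses too. They were at -1.24 ± 0.20 and -0.28 ± 0.10 in drought, and at -1.73 ± 0.21 and -0.44 ± 0.10 in nitrogen deficiency. In edgeR's direct comparisons within P3ID33 PHT1;4 lay below drought alone by -1.15 (adjusted p 3.63e-11; 34% of genes called) and below nitrogen deficiency alone by -0.91 (1.6e-08; 24.4% called). Within P3ID34 the same differences were -1.18 (1.86e-10; 30% called) and -0.80 (8.02e-07; 30.5% called). Against drought alone AT1G16850 was called in neither code (edgeR adjusted p 0.0639 in P3ID33 and 0.0554 in P3ID34), and against nitrogen deficiency alone it was called in both (0.00863 and 0.00214). In P3ID33 AT2G22930 was called against both single stresses (0.0176 and 0.0012 in edgeR) and NSH3 against neither (0.396 and 0.0755). Among genes chosen in P3ID34 that are not members, AT4G11350 (0.0238 and 0.000432 in edgeR) and AT3G16670 (2.79e-06 and 0.00199) were also called against both. The other non-members were not called against both. In P3ID33 the change of PHT1;4 in nitrogen deficiency was also called, at -0.32 ± 0.11 (adjusted p 0.00879), as were 57.9% of all genes.

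**Figure D4:**
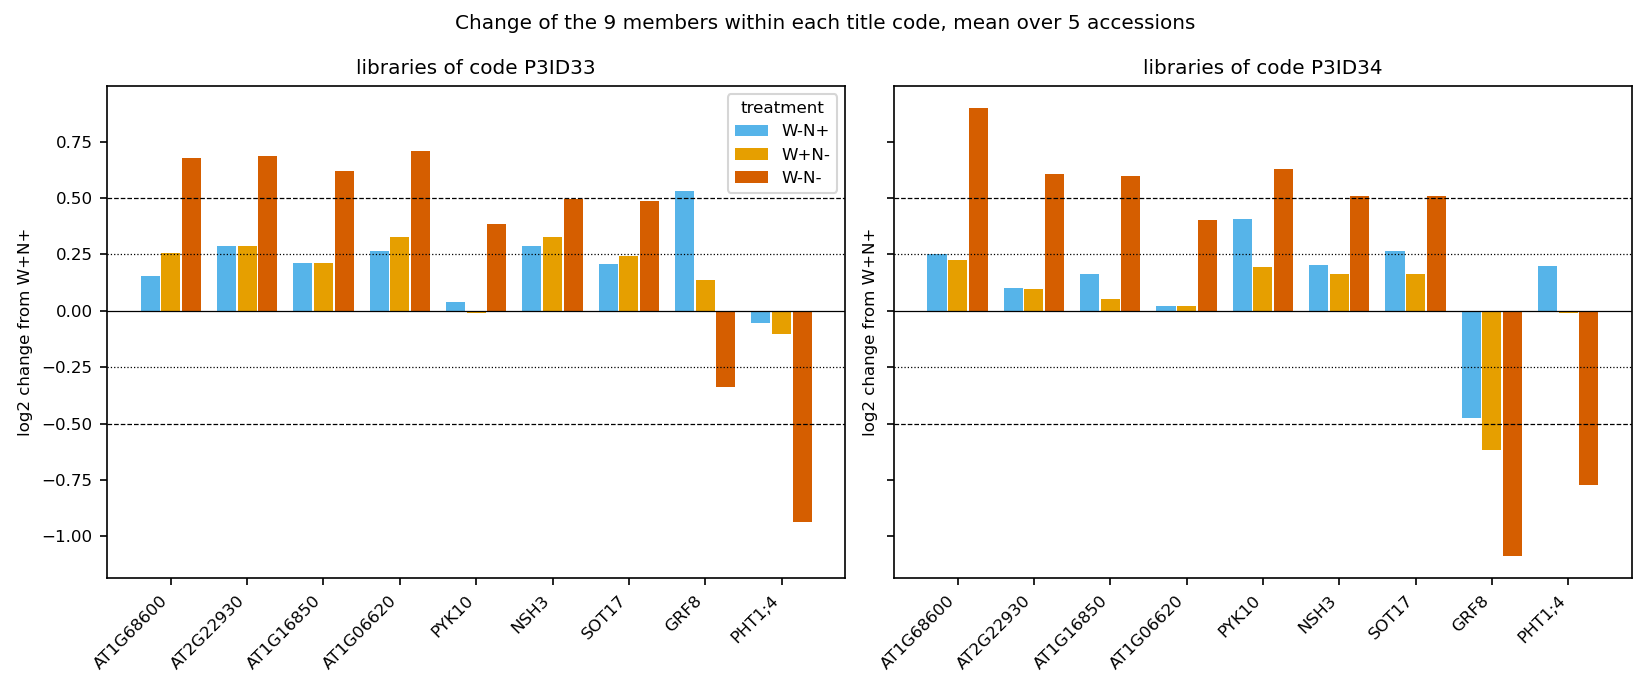
Change from control (y axis, log2, mean over 5 accessions) of each member in drought, nitrogen deficiency and combined stress, computed within the libraries of each title code; dotted lines mark 0.25 and dashed lines 0.5. PHT1;4 reaches -0.94 and -0.77 in combined stress with single changes between -0.10 and 0.20, and GRF8 is at 0.53 in drought in P3ID33 and -0.47 in P3ID34.

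What each member shared with other genes was read from the spread between libraries of the same group and code, which the treatment means of the rule do not use. For each member the 5 genes with the highest Pearson correlation of these deviations over the libraries were listed, and those named here were picked from the 5 after the values were seen, mostly for a known role; the libraries share depth and handling, and the values are a description. AT1G06620 varied with JAZ10 (r 0.79), a jasmonate repressor that jasmonate itself induces, then with AT3G51450 (0.78), PGIP2 (0.78) and OPR3 (0.77), an enzyme of jasmonate synthesis. PYK10 varied with the lectin JAL22 (0.78), the PYK10-binding protein PBP1 (0.77) and the ER body gene NAI2 (0.75). SOT17 varied with IPMI1 (0.79) and the transporter BAT5 (0.76), which act in synthesis of methionine-derived glucosinolates.

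Among the remaining members NSH3 varied most closely with the ABC transporter gene ABCG34 (0.84). AT2G22930 was nearest to PMSR2 (0.56), and SAL1 (0.54), SUR1 (0.53) and APK (0.52) were among its 5 nearest. SUR1 acts in glucosinolate synthesis, APK makes the sulfate donor of sulfotransferases, and SAL1 acts in the metabolism of that donor and its by-product. AT1G16850 was nearest to AT4G03420 (0.68), with the dehydrin gene LTI30 (0.64) among its 5 nearest. AT1G68600 reached 0.68 with AT1G05320. The best matches of GRF8 (0.52) and PHT1;4 (0.43) were the weakest. Between members the highest values were 0.46 for AT1G06620 with AT1G16850 and 0.41 for SOT17 with AT2G22930. Each member had a closer match outside the set than within it. That search covered 16148 genes against 9 members, so it does not show whether the members vary together.

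Relatives of the members were chosen once the members were known, and their values come from the TMM fit. In edgeR's quasi-likelihood test of combined stress 30.6% of all genes were called higher and 26.6% lower. Among PHT1 transporters only PHT1;4 and PHT1;5 were counted deeply enough to test, and PHT1;5 rose in combined stress by 0.55 ± 0.14 (adjusted p 0.000531), opposite to PHT1;4, and was at 0.49 ± 0.15 in nitrogen deficiency. Of the 8 other growth-regulating factors tested, GRF3 rose in combined stress (0.22 ± 0.08, adjusted p 0.00969) and 7 did not pass the test. SOT18, the sulfotransferase most similar to SOT17, rose in combined stress (0.35 ± 0.05, adjusted p 9.16e-10), and SOT16 was at 0.08 ± 0.06. Of 8 other ER body genes tested 4 rose and 1 fell, led by TSA1 (1.14 ± 0.10, adjusted p 1.14e-19) and the leaf ER body glucosidase BGLU18 (0.75 ± 0.11, adjusted p 5.89e-09). NAI1, the transcription factor of ER body genes, fell (-0.51 ± 0.16, adjusted p 0.00406). ALMT6, the closest copy of AT1G68600, rose by 1.23 ± 0.10 (adjusted p 4.2e-20), and in nitrogen deficiency alone was at 1.40 ± 0.10.

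None of the members belonged to 12 lists of other pathways, whose counts in combined stress are given with the median log2 change; over all genes tested 6133 were called higher and 5335 lower, with a median of 0.03. Lists with more lower calls were xyloglucan remodelling (0 higher and 14 lower of 17 tested, median -0.68), auxin response (2 and 9 of 16, -0.35) and pattern-triggered defence and camalexin (3 and 7 of 12, -0.45). Lists with more higher calls were heat shock (11 and 1 of 15, 0.33), the cold regulon (10 and 1 of 16, 0.46), ethylene (8 and 0 of 16, 0.16), secondary cell wall (7 and 1 of 11, 0.22), late embryogenesis proteins (4 and 1 of 6, 0.62), redox genes (7 and 5 of 17, 0.07), clock and light genes (5 and 3 of 13, 0.07) and wax and cutin (9 and 7 of 27, 0.05). Brassinosteroid and gibberellin genes had 6 calls each way of 20 tested.

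The members were not neighbours in the genome. In the TAIR10.1 annotation no member lay within 5 protein-coding genes of another. Several had related copies, and reads could be shared: by alignment of transcripts AT2G22930 was 88.1% identical to AT4G09500, AT1G68600 82.1% to ALMT6, PHT1;4 81.6% to PHT1;7 and PYK10 81.4% to BGLU21. PHT1;7 and BGLU21 were counted too weakly to be tested.

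Promoters were searched from 250 bases before to 50 bases after the annotated start, on both strands, and set beside 27443 protein-coding genes of the TAIR10.1 annotation. The phosphate starvation motif GNATATNC (P1BS) occurred in PHT1;4 and in no other member, against 6.25% of all promoters, but in no member when the 50 bases after the start were left out (5.46%). AT1G16850 and GRF8, which moved in opposite directions, both held the ABA motif ACGTGTC (4.33% of all promoters) and the drought and cold motif ACCGAC (5.70%), which GRF8 did not hold in the 250 bases before the start alone. The G-box CACGTG occurred in AT1G06620 (7.68%). GATAAG occurred in AT1G16850, NSH3 and SOT17 (14.6%), and TATAAA in 5 members (52.1%). No motif searched was held by more than 3 of the 7 higher members except TATAAA, which 4 of them held. These are matches of letters, with no test.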

How the data were processed

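Libraries came from rosette RNA and a stranded mRNA kit, per the labels' protocols. Reads were handled with HISAT2 and Trimmomatic 0.36, per the submitters' processing notes. Which build, counting tool and strand setting were used is not given in the sources used here. Values that the authors deposited are whole counts of reads per gene, not normalized. Gene names, transcripts and promoters came from RefSeq's TAIR10.1 annotation, which matched 32548 of the 32833 gene IDs.

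Members were chosen from total-count CPM. Tests used edgeR 4.0.16 in R 4.3.3 (TMM, filterByExpr, 20025 genes, quasi-likelihood, group and title code as terms, Benjamini-Hochberg over all genes), and fold changes have the fit's SE. Alternatives used limma 3.58.1 and DESeq2 1.42.0. The members, gene lists, tests and naming rule were chosen with earlier results of these data known. All 9 members are named. By the naming rule the 4 genes on each side of a limit and those that met the rule in 1 code are also open to naming, whereas family relatives and the genes nearest in spread were chosen after their values were seen. The fit was tested on simulated data. No library pair of a group differed by as little as sampling noise (lowest mean chi-square per gene 3.07).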

Additional observations from a re-analysis of the deposited data

Results flagged for a closer look

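In 15 of 180 tests of a member in a group of libraries, 1 library lay apart from the others by Dixon's 95% limit, where chance alone flags about 1 in 20 groups. Libraries above their group were, for AT1G68600, Bur-0 W+N- e at 131 CPM (others 62.9 to 82.4) and Col-0 W-N- e at 289 CPM (others 249.8 to 261). For AT1G16850 they were Bur-0 W-N- c at 6.62 CPM, Col-0 W-N+ a at 6.09 CPM and Tsu-0 W-N- b at 11.9 CPM. Tsu-0 W-N- b was also the high library of AT1G06620, at 14.6 CPM against 3.53 to 5.43. PYK10 in Tsu-0 W-N+ c was at 43.1 CPM (others 12.4 to 17.38), SOT17 in Sha W-N- a at 201 CPM, PHT1;4 in Col-0 W-N- b at 2.80 CPM (others 1.33 to 1.74) and GRF8 in Col-0 W+N- f at 112 CPM (others 4.78 to 15.0). Libraries below their group were AT1G68600 in Cvi-0 W+N+ c at 43.5 CPM (others 123 to 194), AT2G22930 in Bur-0 W-N- e at 4.67 CPM, PYK10 in Col-0 W+N+ f at 8.00 CPM (others 13.96 to 16.7), NSH3 in Sha W-N- e at 10.3 CPM and PHT1;4 in Cvi-0 W+N- e at 4.42 CPM.

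The combined-stress change differed between accessions, by edgeR's quasi-likelihood test of the difference itself, for AT1G68600 (adjusted p 0.00589), AT1G06620 (adjusted p 0.0442) and AT2G22930 (adjusted p 0.0463). By the rule the smallest changes were those of Tsu-0 for AT1G68600 (0.24), Col-0 for AT1G06620 (-0.03, with Bur-0 at 1.24 at the other end) and Cvi-0 for AT2G22930 (0.10). In the tested fit Tsu-0 was at 0.08 ± 0.14, Col-0 at -0.38 ± 0.28 and Cvi-0 at -0.03 ± 0.18 for these genes. The call for AT2G22930 was lost without the 4 libraries far from their groups (adjusted p 0.164).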

How the results depend on the processing

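The rule gave 3 genes with a pseudocount of 2, 1 gene (PHT1;4) with a single-stress limit of 0.15, 2 with a combined limit of 0.75, 5 without Sha, 2 in code P3ID33 alone and 17 in code P3ID34 alone. Under the other settings it gave 6 to 12 genes, and 7 to 10 without 1 replicate letter. With TMM library sizes in the rule 8 genes met it, of which 4 were members; without the 4 libraries far from their groups 12 did, 7 of them members. Of genes chosen in P3ID33, 2 of 2 were called in P3ID34, 4 of 4 without the far libraries and 2 of 5 with TMM library sizes. Without a replicate letter these were 2 of 2 (a), 1 of 3 (b), 1 of 4 (c), 6 of 7 (d), 4 of 6 (e) and 5 of 7 (f). With a minimum mean of 5 CPM none was chosen. Of genes chosen in P3ID34, 10 of 17 were called in P3ID33, and 5 where a change of at least 0.5 was also asked. Without a replicate letter these ran from 5 of 11 (b) to 15 of 25 (c), with 11 of 26 without a. Accession dependence was called for 3 members, for 1 with no filter, for 1 with no code term and for 0 to 2 without a replicate letter; edgeR called none without letter d, where the lowest adjusted p was 0.0788. The cause of these differences was not tested.

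With the replicate block it was called for 3 members, levels in control for 8, and combined stress for 11450 genes against 11468. Same-letter libraries correlated from -0.588 to 0.573, with 15 of 29 pairs over 0.1; since not every pair was, the letters were not taken as pairing the libraries. The fitted combined change kept its sign and moved by less than the SD between libraries in all 117 refits of members. That limit is wide, and for GRF8 (1.63), AT1G06620 (0.57) and PYK10 (0.50) it is larger than the fitted change itself. Over the settings GRF8 ran from -1.43 to -0.62, AT1G06620 from 0.35 to 0.63 and PYK10 from 0.22 to 0.38. In the 250 bases before the start alone GNATATNC was held by 0 members, ACCGAC by 1 and TATAAA by 3. AT2G22930, AT1G16850 and PHT1;4, at means of 3.91, 3.69 and 4.73 CPM, are the members that low counts limit most.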

Other observations

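Genes next to the members in annotation or function, chosen after the members were known, gave further values in edgeR's quasi-likelihood test of combined stress. AT1G06640 and AT1G06645, oxygenase genes beside AT1G06620, rose by 0.59 ± 0.08 (adjusted p 9.43e-10) and 0.57 ± 0.14 (adjusted p 0.00127), and both were higher in nitrogen deficiency alone as well (0.40 ± 0.08 and 0.80 ± 0.17). AT1G06650, the other neighbour tested, was at 0.03 ± 0.03 (adjusted p 0.43). MEB1 and MEB2, membrane proteins of the ER body, rose by 0.56 ± 0.09 (adjusted p 4.66e-08) and 0.69 ± 0.10 (adjusted p 2.78e-09). MEB1 was at 0.15 ± 0.09 in drought and 0.09 ± 0.09 in nitrogen deficiency in this fit, a pattern like that of the members, and PYK10 itself was at 0.28 ± 0.12 in combined stress. Among malate transporter relatives of AT1G68600, 5 rose and 1 fell of 7 tested, the lower gene being AT5G46600 (-0.41 ± 0.05, adjusted p 4.28e-11). URH1, an intracellular nucleoside hydrolase, fell by 0.18 ± 0.03 (adjusted p 1.27e-06), whereas NSH3 was at 0.38 ± 0.08.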
